A study of Mus musculus with 24 samples.

Results

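The acute uterine response to progesterone (P4) was described from 6 arrays of wild-type mouse uterus collected 4 h after a single injection, 3 from mice given P4 and 3 from mice given vehicle, out of 24 arrays in the series. The members were the arrays whose titles give wild type and 4 h, and every one of the 12422 probe sets that is not an Affymetrix control was tested on them. The mice had been ovariectomized at 6 wk of age, which removes the ovarian source of estrogen and P4. At 2 wk after surgery they received sesame oil alone (vehicle) or 1 mg of P4 in 100 μl of the same oil. The series also holds PRKO mice (progesterone receptor knockout), ovariectomized and injected in the same way, and uteri of both genotypes taken at 40 h, which is 4 h after the fourth of 4 injections given every 12 h. Each of these 8 groups has 3 arrays. The labels name neither the knockout allele nor the strain, and they state that RNA of 5 mice was pooled for each genotype and treatment. Whether the arrays within a group hold separate pools of RNA is not stated, so each p-value below measures the spread between arrays, which may be technical. Whole uterus was used, so epithelium, stroma, muscle, vessels and blood cells are read together, and fewer cells of a type and less RNA per cell cannot be told apart.

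P4 acts in the uterus mainly through its nuclear receptor, a ligand-activated transcription factor that binds a palindromic DNA element shared with the glucocorticoid, mineralocorticoid and androgen receptors. The receptor is present in epithelium, stroma and muscle. In the epithelium it is known to raise Indian hedgehog, which signals to the stroma. P4 also opposes the actions of estrogen on the epithelium and prepares the endometrium to accept an embryo.

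Sequences near the starts of genes that changed are shown first, because the receptor and the enzymes it is known to regulate give particular motifs to look for. They were read from the RefSeq promoter table for mouse (GRCm38.p6), in which 71 of the 79 genes with a called probe set have an entry, and the 250 bases before each annotated start were searched on both strands. Sgk1, a kinase that many steroid receptors are known to induce, has a full palindrome of the receptor element, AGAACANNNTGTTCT, from base -189 to -175 relative to 1 of its 6 annotated starts. This 15-base motif was looked up after matches to its 9-base core ACANNNTGT had been seen, and it occurs in 3 of 32851 promoters (0.00913%). Cyp26a1, which encodes the enzyme that hydroxylates and so inactivates retinoic acid, has 2 copies of AGTTCA, the half-site of retinoic acid receptor elements, on the reverse strand and 5 bases apart. How many promoters hold 2 copies at this spacing was not counted. Capitals mark the matches in each 30-base window, printed 5′ to 3′ on the strand of the gene.
Sgk1, chr10:21993693-21993722, plus strand: atgcggaaAGAACAGAATGTTCTcggagat
Cyp26a1, chr19:37697769-37697798, plus strand: ttaaagaTGAACTTTGGGTGAACTaatttg
The 9-base core alone was present upstream of 8 of the 71 genes (11.3%), beside 325 of the 6572 genes on the array that have a promoter entry (4.95%) and 5.84% of the promoters. The genes with the core that were higher after P4 were Sgk1 (at another of its starts), Pigr, Acot1, Clcn5, Hopx and Ctps2, and those that were lower were Prxl2a and Emb. The windows of the 3 with the highest change are shown, with the core in capitals.
Sgk1, chr10:21978534-21978563, plus strand: gtctgtttgaaACAGTTTGTctacatagct
Pigr, chr1:130826486-130826515, plus strand: acactaaggagACATTCTGTcccatatcct
Acot1, chr12:84009291-84009320, plus strand: ctttgatttagACACTTTGTggactctcca
The other motifs searched were commoner or absent. The half-site TGTTCT, contained in the palindrome above, was found for 12 of the 71 genes (16.9%). It was found for 14.3% of the array genes with a promoter entry and in 16.1% of promoters. AGTTCA was found for 11 (15.5%), beside 11.1% of those array genes and 11.8% of promoters. The TATA box TATAAA was found for 10 (14.1%), beside 10.9% and 12.4%. A gene counts if any of its annotated starts has a match, and genes differ in their number of starts. The palindromic element of the estrogen receptor was found for 0 of the 71 genes, beside 0.0304% of the array genes and 0.0639% of promoters. A match describes letters in a short window and is no evidence that a receptor binds there, and most elements of this receptor lie outside such windows.

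The deposited values are MAS5 signals on a linear scale. Before testing, each array was scaled to a trimmed mean of 500 and 32 was added before log2, so that log2 changes of dim probe sets are understated. The median SD of log2 signal between replicates was 0.1474 in the vehicle group and 0.1108 in the P4 group at 4 h, against 0.07671 to 0.09742 in the groups of 40 h. Vehicle array 2 and P4 array 2 stood apart in a sign of RNA quality, the ratio of 3′ to 5′ signal for Gapdh, which was 3.67 and 3.25 on them and 1.23 to 1.86 on the other 22 arrays. The same ratio for Actb was 1.11 to 1.96 on those other arrays and 1.42 and 1.3 on arrays 2 of vehicle and P4. The probe set for Pgr, the receptor itself, was dim and does not check the genotype: wild-type vehicle arrays read 140.1, 149.1 and 144.9, wild-type P4 arrays 102.8, 139.4 and 119.8, and PRKO arrays of 4 h 112.5 to 130.3. Its change in wild type was -0.22 ± 0.08 (log2, SE, adjusted p = 0.569), and where the probe set lies relative to the deletion was not known here.

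After 1 injection 65 probe sets were higher and 23 lower, which is 0.523% and 0.185% of those tested and 0.708% together (limma, adjusted p under 0.05, moderated over the 24 arrays). They name 79 genes through 83 probe sets, and 5 name no single gene. Cyp26a1, the retinoic acid hydroxylase, had the highest change and Calb1, a calcium-binding protein, the lowest. The median change was 0.64 among the higher and -0.64 among the lower, and 11 of the higher and 2 of the lower went past 1 in log2. In 64 of the 65 higher probe sets every P4 array lay above every vehicle array, and in 23 of the 23 lower ones every P4 array lay below. Such separation was also seen in 828 of all probe sets (6.67%). Isg20, an RNA exonuclease induced by interferon, was the exception, since its P4 array 3 (493.8) lay below its vehicle array 2 (520.6).

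The calls differ in how far they rest on the choice of arrays. With the spread taken from the 12 arrays of 4 h alone, 29 probe sets passed (0.233%), 28 of them among the 88. Without both arrays numbered 2, 29 passed, 27 of them among the 88. Leaving out single arrays gave 41 calls without P4 array 2, 47 without P4 array 1, 56 without vehicle array 1, 60 without vehicle array 2, 91 without vehicle array 3 and 138 without P4 array 3, and 27 of the higher and 8 of the lower probe sets passed each time. In 17 higher and 5 lower probe sets the call held in these 3 checks and with the replicate number as a block. The higher ones were Cyp26a1, Cited2, Acot7, Il13ra2, Pdk3, Ggct, Bmp2k, Pip5k1b, Caprin2, Tiparp, Acot1, Zdhhc3, Adh5, Atp6v1b2, Kcnk1, Pnkd and an unnamed probe set, and the lower ones Efnb2, Car2, Sult1d1 and both probe sets of S100g. The other 66 lost the call in at least 1 of these checks, and the text below gives, beside the genes with values for each array, the adjusted p from the checks that end their calls. With the 6 arrays fitted alone 10 passed, 9 of them among the 88. Of the 21 named probe sets that held in the checks above, only 5 passed in that fit: Cyp26a1, Cited2, Ggct, Car2 and Sult1d1. The rest did not, among them Acot7 and Il13ra2 (adjusted p = 0.229 each) and Efnb2 (0.178). Gene lists below are read at the brightest probe set of each gene, where 53 of all 8251 genes were higher and 18 lower (0.861% together) and 562 had an unadjusted p under 0.05 by limma. All of these lists were drawn up with earlier results of these data known, so none of their counts is independent evidence.

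Cyp26a1 had the highest change. Its vehicle arrays read 97.95, 103.0 and 89.42 and its P4 arrays 1212, 1171 and 724.9. The lowest P4 array was far above the highest vehicle array, and P4 array 3 was the lowest of its group. The change was 3.02 ± 0.16 (log2, SE), 8.1-fold on the offset scale, with an adjusted p of 1.21e-10. Aldh1a1, which makes retinoic acid from retinal, was the other member of the retinoid list to pass. Its vehicle arrays read 922.6, 852.6 and 1229 and its P4 arrays 1708, 1606 and 1477, a change of 0.67 ± 0.12 (adjusted p = 0.00528). The second probe set of Aldh1a1 was dim and read -0.13 (adjusted p = 0.975). Thus 2 of 20 measured genes of retinoid synthesis, carriage, receptors and breakdown rose and 0 fell (0.861% of all genes passed in either direction), with a median change of 0.05 against 0.0 for all genes. Rbp4, the blood carrier of retinol, read -0.12 ± 0.21, Adh1 0.03 ± 0.15 and the receptor Rxra 0.04 ± 0.09, each short of the threshold. The Aldh1a1 call was lost with the 4 h arrays alone (adjusted p = 0.0715) and without both arrays numbered 2 (0.187).

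**Figure D1:**
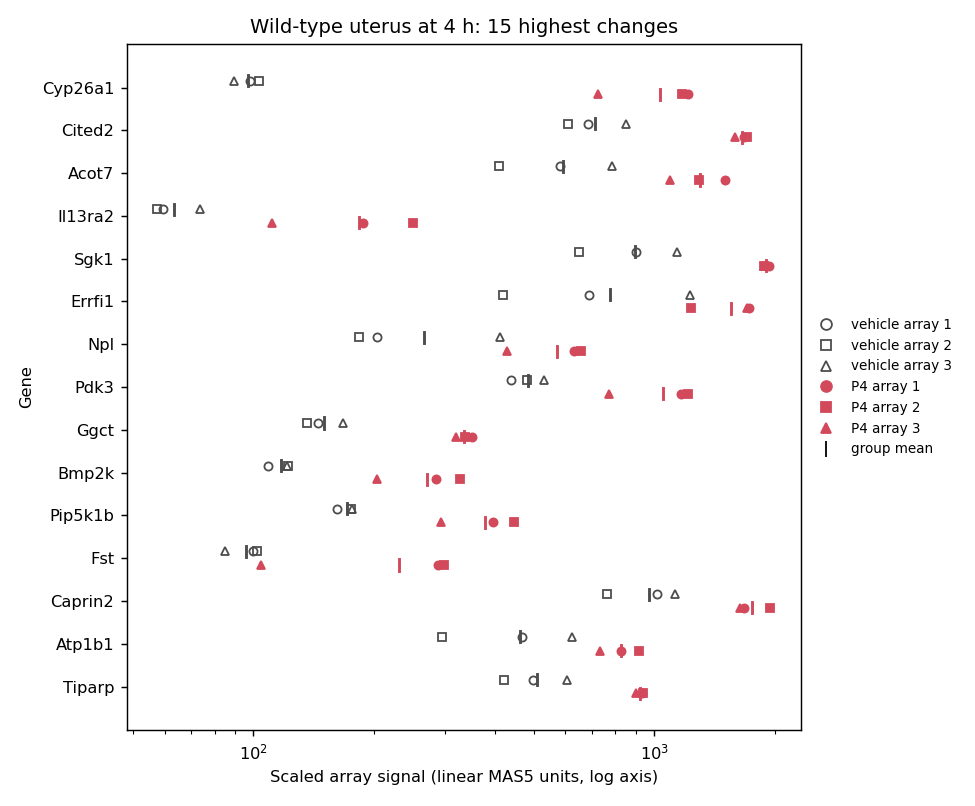
Scaled signal (log axis) of the 15 genes with the highest changes among probe sets that passed, named a single gene and did not overlap, in 3 vehicle arrays (open grey) and 3 P4 arrays (filled red) of wild-type uterus at 4 h; symbols give the array number and vertical ticks the group means. Cyp26a1 moves from 89.42 to 103.0 up to 724.9 to 1212, while Fst in P4 array 3 (104.7) lies just above its highest vehicle array (102.3).

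Transcriptional co-regulators and signalling proteins known as P4 targets came next. Cited2, which binds the CBP and p300 co-activators, read 681.9, 609.0 and 850.4 under vehicle and 1676, 1707 and 1589 under P4. The P4 arrays lay close together and well above the vehicle arrays, with a change of 1.19 ± 0.15 (adjusted p = 0.00029). Gata2, a transcription factor that acts with the receptor in the uterus, read 2044, 1574 and 1883 under vehicle and 3054, 2555 and 2679 under P4 (0.59 ± 0.11, adjusted p = 0.00781). A dimmer second probe set of Gata2 read 0.17 (adjusted p = 0.991). Ihh, the hedgehog ligand of the epithelium, read 790.8, 847.9 and 1038 under vehicle and 1272, 1397 and 1196 under P4. The groups were separate but near each other, with a change of 0.52 ± 0.11 (adjusted p = 0.0224). The Gata2 call ended without P4 array 1 or vehicle array 2 (adjusted p 0.0641 to 0.0789) and with the 4 h arrays alone (0.0842), and the Ihh call without any of P4 arrays 1 and 2 and vehicle arrays 1 and 2 (0.0969 to 0.196) and with the 4 h arrays alone (0.121). Without both arrays numbered 2 the adjusted p was 0.0932 for Gata2 and 0.447 for Ihh.

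Among the hedgehog genes measured, 11 in all, only Ihh passed (9.09%, beside 0.861% of all genes). The receptor Ptch1 read -0.08 ± 0.22, the effector Gli1 0.18 ± 0.12 and Nr2f2, a stromal nuclear receptor downstream of Ihh, -0.24 ± 0.29 (adjusted p = 0.989). Nr2f2 arrays spread widely, with 1223, 867.3 and 1379 under vehicle and 864.7, 725.8 and 1378 under P4. Hand2, a stromal factor known to be induced by P4, read 187.1, 249.6 and 207.7 under vehicle and 300.5, 370.5 and 218.2 under P4. These groups overlapped, because P4 array 3 lay within the vehicle range, and the change was 0.39 ± 0.15 (adjusted p = 0.578). Hoxa11, a homeobox gene required in the endometrium, went from a mean of 2000.0 to 2802 (0.5 ± 0.14, adjusted p = 0.164). Of 32 transcription factors and co-regulators of the endometrium Gata2 and Cited2 rose and Hmga2 fell (9.38%, beside 0.861% of all genes, median 0.06).

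Kinases and growth factor inhibitors formed a further group. Sgk1, whose palindrome is printed above, read 901.1, 650.0 and 1142 under vehicle and 1931, 1884 and 1878 under P4. The P4 arrays differed by less than the vehicle arrays did, and the change was 1.09 ± 0.18 (adjusted p = 0.0032). Errfi1, an intracellular inhibitor of the EGF receptor, read 686.0, 418.5 and 1227 against 1729, 1239 and 1707 on one probe set, where P4 array 2 barely exceeded vehicle array 3. That probe set changed by 1.09 ± 0.24 (adjusted p = 0.0275), and the brighter second probe set by 0.83 ± 0.17 (adjusted p = 0.0132). Pip5k1b, which makes the lipid PI(4,5)P2, read 161.7, 175.5 and 175.8 against 395.1, 446.7 and 293.8. It rose by 1.0 ± 0.11 (adjusted p = 2.94e-05), while another probe set of this gene read 0.09 (adjusted p = 0.989). Bmp2k, a kinase named for its induction by BMP2, read 108.9, 122.3 and 121.0 against 285.1, 327.1 and 202.9 (1.0 ± 0.14, adjusted p = 0.0008). The kinase Pim3 rose by 0.55. The call of Sgk1 was lost with the 4 h arrays alone (adjusted p = 0.0597) and without both arrays numbered 2 (0.0995). That of the first Errfi1 probe set was lost with the 4 h arrays alone (0.237) and without vehicle arrays 1 or 2 or P4 arrays 1 or 3 (0.0842 to 0.175), and that of the second without vehicle arrays 1 or 2 or P4 arrays 1 or 2 (0.0673 to 0.0982). Without both arrays numbered 2 the adjusted p was 0.124 for the first and 0.313 for the second.

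Sgk1 and Errfi1 were also the 2 of 30 measured genes of the list of targets shared by several steroid receptors that passed (6.67%, beside 0.861% of all genes at their brightest probe set), with a median change of 0.12 over the list. Fkbp5, the receptor co-chaperone that glucocorticoids and progestins induce, read 1389, 949.0 and 1767 under vehicle and 1719, 1571 and 2056 under P4. Its groups overlapped (0.41 ± 0.2, adjusted p = 0.816). Mt2 and Mt1, the metallothioneins, read 0.15 ± 0.18 and 0.31 ± 0.23, and the transcription factor Zbtb16 read 0.65 ± 0.36 (adjusted p = 0.907). Of 34 measured genes described as regulated by P4 in the uterus 9 rose and 0 fell, with a median of 0.25: Ihh, Cyp26a1, Il13ra2, Gata2, Fst, Cited2, Sgk1, Errfi1 and Npl. That list, like the others, was drawn up with earlier results of these data known, so its count is no independent evidence. Areg, an EGF receptor ligand, was not analysed here. Of 12 genes of the EGF receptor system Errfi1 alone passed, and the ligand Hbegf read 0.3 ± 0.11 (adjusted p = 0.507).

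Fst encodes follistatin, which binds and neutralises activins. It read 99.58, 102.3 and 85.03 under vehicle and 289.4, 299.0 and 104.7 under P4. P4 arrays 1 and 2 were high, and P4 array 3 was just above the vehicle range. The change was 0.94 ± 0.2 (adjusted p = 0.0275), and the call ended when any array except P4 array 3 was left out (0.0719 to 0.292), with the 4 h arrays alone (0.305) and without both arrays numbered 2 (0.429). Of 45 genes listed under activin, BMP and TGF-beta signalling Fst and Bmp2k rose and Id4, an inhibitor of helix-loop-helix factors, fell (median -0.02). They make up 6.67% of that list, beside 0.861% of all genes. Bmp2k counts here only as a kinase named for its induction by BMP2. Tgfbi, a secreted TGF-beta target, had a larger change than Id4 but did not pass, with means of 2504 and 1483 (-0.68 ± 0.23, adjusted p = 0.373).

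Among the genes that rose were enzymes of fatty acid, glucose and glutathione metabolism. Acot7 and Acot1, which split acyl-CoA into free fatty acid and coenzyme A, were the 2 of 25 genes of fatty acid handling to rise, and 0 fell. They make up 8.0% of that list, beside 0.861% of all genes. Acot7 read 582.8, 409.7 and 784.5 under vehicle and 1506, 1294 and 1097 under P4 (1.13 ± 0.17, adjusted p = 0.000879). Acot1 read 448.9, 510.9 and 521.5 against 875.8, 1007 and 691.9 (0.75 ± 0.11, adjusted p = 0.000879). Both were separate by a wide margin, and the bright lipogenic genes Scd1 (0.03 ± 0.17) and Fasn (0.04 ± 0.2) did not pass. Slc27a2, which activates and takes up fatty acids, rose by 0.33.

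Of 28 genes of glucose transport, glycolysis and pyruvate dehydrogenase kinases 3 rose and 0 fell (10.7%, beside 0.861% of all genes, median 0.02). Pdk3, which switches off pyruvate dehydrogenase, read 440.0, 481.2 and 532.0 under vehicle and 1167, 1217 and 770.7 under P4 (1.05 ± 0.15, adjusted p = 0.0008). P4 array 3 was again the lowest of its group and still above the vehicle arrays. Pfkfb3, which makes the activator of phosphofructokinase, rose by 0.78, and the glucose transporter Slc2a3 by 0.53. The glycolytic enzymes Hk1 (0.05 ± 0.17), Aldoa (0.01 ± 0.13) and Ldha (-0.1 ± 0.09) did not pass. Gys1, a glycogen synthase, rose by 0.37. The Pfkfb3 call ended without P4 arrays 1 or 2 or vehicle array 2 (0.061 to 0.128), and that of Slc2a3 without P4 arrays 1 or 2 or vehicle arrays 1 or 2 (0.114 to 0.294). The adjusted p of Pfkfb3 and Slc2a3 was 0.0715 and 0.0895 with the 4 h arrays alone and 0.276 and 0.528 without both arrays numbered 2.

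Ggct, which acts in glutathione breakdown, was the 1 of 34 genes of glutathione and redox metabolism to pass (2.94%, beside 0.861% of all genes). It read 145.0, 136.2 and 167.6 under vehicle and 350.4, 337.0 and 320.5 under P4. Both groups were narrow, and the change of 1.02 ± 0.09 had an adjusted p of 1.47e-06, the lowest after that of Cyp26a1. Adh5, which clears formaldehyde as its glutathione adduct, rose on both of its probe sets (0.67 ± 0.09 and 0.56 ± 0.09), the second of which did not pass with the 4 h arrays alone (0.0591). The abundant glutathione transferases Gstm1 (0.25 ± 0.09, adjusted p = 0.403) and Gstp1 (0.0 ± 0.12) did not pass.

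Npl, which breaks down sialic acid, read 203.0, 183.3 and 411.6 under vehicle and 631.1, 655.9 and 429.5 under P4. Vehicle array 3 and P4 array 3 nearly met, the change was 1.08 ± 0.25 (adjusted p = 0.0441), and the call was lost under several settings, among them the replicate block (0.0994), the 4 h arrays alone (0.0903), the loss of both arrays numbered 2 (0.689) and the loss of vehicle arrays 1 or 2 or P4 arrays 1 or 2 (0.182 to 0.292). Tiparp, an ADP-ribosyltransferase, read 497.8, 422.4 and 607.3 against 932.1, 935.4 and 900.9 (0.83 ± 0.12, adjusted p = 0.000879). Caprin2, an RNA-binding protein, read 1017, 762.9 and 1128 against 1680.0, 1947 and 1641 (0.85 ± 0.12, adjusted p = 0.000879). Both had P4 arrays that lay well clear of the vehicle arrays. Among other enzymes that rose were Fmo5 (0.64), the mitochondrial creatine kinase Ckmt1 (0.58), the glycyl-tRNA synthetase Gars (0.56), the methyltransferase Gnmt (0.43) and the CTP synthase Ctps2 (0.42).

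Genes known from mucosal immunity that rose were Il13ra2, Pigr, Myd88 and Isg20. Il13ra2, a decoy receptor that captures interleukin 13, read 59.33, 57.58 and 73.46 under vehicle and 187.7, 250.6 and 111.5 under P4 (1.12 ± 0.17, adjusted p = 0.000879). The probe set was dim, and its P4 arrays spread more than its vehicle arrays. It was the 1 of 37 interleukin and chemokine genes to pass (2.7%, beside 0.861% of all genes). Pigr, which carries IgA across epithelium, read 662.7, 651.0 and 541.4 against 1229, 1492 and 712.8 (0.8 ± 0.17, adjusted p = 0.0275), so that P4 array 3 lay just above the vehicle arrays. Myd88, the adaptor of Toll-like and interleukin 1 receptors, rose by 0.82 ± 0.17 and Isg20 by 0.78 ± 0.16. The calls of Pigr, Myd88 and Isg20 ended on leaving out single arrays, with adjusted p up to 0.287, 0.144 and 0.203. The arrays concerned were vehicle arrays 1 and 2 and P4 arrays 1 and 2 for Myd88, the same with vehicle array 3 for Pigr, and vehicle arrays 1 and 3 with P4 arrays 1 and 2 for Isg20. With the 4 h arrays alone Pigr (0.246) and Isg20 (0.259) did not pass, and without both arrays numbered 2 none of Pigr (0.391), Myd88 (0.313) and Isg20 (0.0663) did.

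Ion and solute transporters that rose included a sodium pump subunit, a potassium channel and a proton pump subunit. Atp1b1, the beta subunit of the sodium pump, read 467.8, 294.7 and 623.3 under vehicle and 828.5, 914.7 and 732.3 under P4 (0.85 ± 0.16, adjusted p = 0.008). Its call was lost with the 4 h arrays alone (0.134), without both arrays numbered 2 (0.194) and without P4 array 2 (0.0741), and another probe set read 0.01 (adjusted p = 0.999). Kcnk1, a leak potassium channel, was narrower, with 921.6, 900.1 and 931.6 against 1331, 1408 and 1327 (0.55 ± 0.08, adjusted p = 0.000879). Atp6v1b2, a subunit of the vacuolar proton pump, read 1110.0, 1107 and 1108 against 1797, 1654 and 1497 (0.56 ± 0.07, adjusted p = 0.000307). Its dim second probe set had the same change of 0.56 with an adjusted p of 0.0943. Clcn5, a chloride and proton exchanger, rose by 0.7, the copper transporter Slc31a1 by 0.47, the nucleoside transporter Slc29a1 by 0.47 and the pyrophosphate transporter Ank by 0.5. Of 31 genes of ion channels, water channels, pumps and carbonic anhydrases Atp1b1 and Kcnk1 rose and Car2 fell (9.68%, beside 0.861% of all genes, median -0.04).

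Klk1, tissue kallikrein, rose on both of its probe sets, by 0.7 ± 0.16 (adjusted p = 0.0422) and 0.64 ± 0.11 (adjusted p = 0.00339). The second of these was very dim, reading 12.43, 18.86 and 14.26 under vehicle and 43.47, 56.53 and 26.7 under P4, at percentile 1.14 of mean signal among the probe sets. With the 4 h arrays alone neither passed (0.194 and 0.0715), and the first also lost its call without both arrays numbered 2 (0.645) and without vehicle arrays 1 or 2 or P4 arrays 1 or 2 (0.0981 to 0.354). Klk1 was the 1 of 12 measured kallikreins to pass (8.33%, beside 0.861% of all genes, median 0.24). Klk1b1 (0.46 ± 0.11, adjusted p = 0.0654), Klk1b21 (0.45 ± 0.11, adjusted p = 0.0769) and Klk1b22 (0.4 ± 0.14, adjusted p = 0.459) did not pass. Probe sets of this cluster can share signal between near-identical genes, since 8 of the 12 carry a suffix for shared or mixed probes, and the brighter Klk1 probe set is one of them. Further single genes that rose were the palmitoyltransferase Zdhhc3 (0.68), Pdzk1ip1 (0.69), Pdlim1 (0.64), the condensin subunit Ncaph (0.63), Ccng1 (0.63), Ripor2 (0.6), the GTPase Rhou (0.56), Pnkd (0.53), the syntaxin Stx18 (0.53), Pdxdc1 (0.52), Parm1 (0.49), Yju2 (0.49), Cdca7 (0.48), the homeodomain protein Hopx (0.45), the channel Mcoln2 (0.39), the glypican Gpc4 (0.38), Trappc1 (0.35) and the initiation factor Eif4g3 (0.35). With the replicate block, the calls of Npl, Slc2a3, Slc29a1, Slc27a2, Pdlim1, Ripor2, Trappc1 and the brighter Klk1 probe set were lost (adjusted p 0.0994, 0.0769, 0.0503, 0.0557, 0.0539, 0.0734, 0.123 and 0.0612).

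The genes that fell included several that estrogen is known to regulate in uterine epithelium. Calb1, calbindin, an intracellular calcium buffer, had the lowest change. It read 1624, 1372 and 1874 under vehicle and 587.7, 638.4 and 487.6 under P4. The groups were far apart, and the change was -1.45 ± 0.29, 2.74-fold lower, with an adjusted p of 0.0146. S100g, a small vitamin D-dependent calcium-binding protein, fell on both probe sets, the brighter reading 433.2, 460.7 and 754.5 against 287.3, 235.2 and 239.1 (-0.99 ± 0.17, adjusted p = 0.0032). The dimmer read 111.2, 162.7 and 187.4 against 72.44, 55.74 and 58.63 (-0.96 ± 0.14, adjusted p = 0.0008). Of 22 genes of calcium binding and handling 0 rose and Calb1 and S100g fell (9.09%, beside 0.861% of all genes, median 0.0). The bright annexins Anxa2 (0.04 ± 0.15) and Anxa5 (-0.01 ± 0.07) did not pass. The Calb1 call, which passed with the 6 arrays fitted alone (adjusted p = 0.0158), was lost with the 4 h arrays alone (0.0591), without both arrays numbered 2 (0.093) and when any array except vehicle array 2 was left out (0.0528 to 0.0704).

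**Figure D2:**
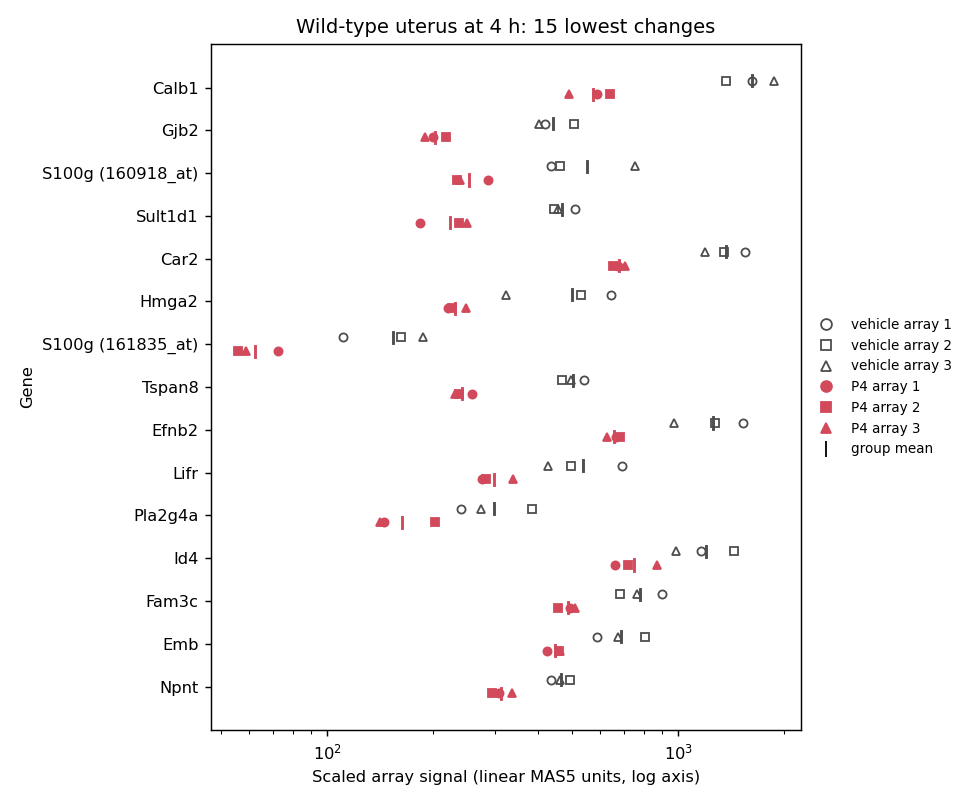
Scaled signal (log axis) of the 15 probe sets with the lowest changes among those that passed, named a single gene and did not overlap, drawn as in the plot of the highest changes; probe set names separate the 2 entries of S100g. Calb1 lies between 1372 and 1874 on the vehicle arrays and between 487.6 and 638.4 on the P4 arrays.

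Gjb2, the gap junction protein connexin 26, read 417.7, 505.7 and 400.4 under vehicle and 200.4, 218.0 and 190.6 under P4. Both groups were narrow (-1.0 ± 0.17, adjusted p = 0.00339), and of 11 connexins this was the 1 that passed (9.09%, beside 0.861% of all genes). Gja1, the main connexin of stroma and muscle, read -0.02 ± 0.14. Car2, a carbonic anhydrase, read 1554, 1349 and 1194 against 675.2, 650.7 and 705.4 (-0.97 ± 0.14, adjusted p = 0.000879), and here too the P4 arrays lay close together. Together Car2, Gjb2, Calb1 and S100g were the 4 of 27 measured estrogen-regulated genes that fell, and 0 rose (14.8%, beside 0.861% of all genes in either direction, median -0.05). This list too was drawn up with earlier results known, so the excess is no independent evidence. Others on that list did not pass, among them Txnip (0.09 ± 0.16), Ckb (0.1 ± 0.19) and the keratin Krt19 (-0.41 ± 0.17, adjusted p = 0.634). The Gjb2 call held in each leave-one-out fit and ended without both arrays numbered 2 (0.0799).

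Sult1d1, a sulfotransferase, read 507.2, 443.0 and 454.0 under vehicle and 183.4, 237.1 and 250.6 under P4 (-0.98 ± 0.13, adjusted p = 0.000384). Efnb2, a membrane-bound ligand of Eph receptors, read 1533, 1271 and 971.7 against 663.4, 682.7 and 625.8 (-0.88 ± 0.12, adjusted p = 0.000759). In both genes the highest P4 array stayed well below the lowest vehicle array. Of 17 ephrins and Eph receptors Efnb2 alone passed (5.88%, beside 0.861% of all genes), and Efnb3 (0.06 ± 0.09) and Epha4 (-0.14 ± 0.11) did not. Tspan8, a tetraspanin of epithelial membranes, read 539.8, 466.6 and 494.6 against 258.1, 238.0 and 231.5 (-0.95 ± 0.17, adjusted p = 0.0044). Its call ended without both arrays numbered 2 (0.0655).

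Hmga2, a chromatin protein of growing cells, read 645.3, 530.1 and 324.1 under vehicle and 220.8, 226.3 and 248.0 under P4 (-0.96 ± 0.19, adjusted p = 0.0111), with vehicle array 3 nearest to the P4 arrays. Lifr, the receptor of leukemia inhibitory factor, read 689.9, 494.0 and 427.0 against 277.2, 283.2 and 337.9 (-0.76 ± 0.16, adjusted p = 0.0224). The other 4 probe sets of Lifr read -0.11 to 0.08 and did not pass, among them the brighter one at -0.11, so the gene's call rests on 1 of 5. Its partner Il6st (-0.4 ± 0.12, adjusted p = 0.199) and Jak2 (-0.48 ± 0.15, adjusted p = 0.303) were lower but did not pass. Pla2g4a, the phospholipase that frees arachidonic acid for prostaglandins, read 240.5, 383.8 and 275.0 against 145.3, 203.2 and 141.8 (-0.75 ± 0.14, adjusted p = 0.00812). It was the 1 of 23 prostaglandin genes to pass (4.35%, beside 0.861% of all genes). With the 4 h arrays alone the calls of Hmga2, Lifr and Pla2g4a were lost (0.107, 0.0878 and 0.119), and without both arrays numbered 2 those of Hmga2 and Lifr (0.253 and 0.239). Hmga2 and Lifr also lost theirs without vehicle arrays 1 or 2 or P4 arrays 1 or 2 (0.0641 to 0.0916 and 0.0525 to 0.177), and Pla2g4a without P4 array 1 or vehicle array 2 (0.0641 to 0.0711).

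Id4 read 1164, 1447 and 984.6 under vehicle and 660.8, 720.1 and 871.8 under P4 (-0.64 ± 0.13, adjusted p = 0.018). Fam3c, a secreted protein, read 898.9, 682.7 and 762.0 against 491.4, 456.2 and 510.1 (-0.64 ± 0.12, adjusted p = 0.0096). Id4 groups lay nearer to each other than those of Fam3c, whose second probe set read -0.59 (adjusted p = 0.0985) and whose dimmest read 0.0. The membrane protein embigin, Emb, read 588.2, 805.5 and 672.2 against 423.3, 457.5 and 460.8 (-0.58 ± 0.12, adjusted p = 0.0132), and its dim second probe set 0.11. Npnt, nephronectin of the basement membrane, read 435.6, 492.6 and 461.8 against 309.1, 294.8 and 336.7 (-0.52 ± 0.11, adjusted p = 0.0275). Smaller falls were those of Prxl2a (-0.51), the histone variant H2az1 (-0.5), Emp1 (-0.48), the peptide transporter Slc15a2 (-0.42), Epb41l4a (-0.41), the paraoxonase Pon2 (-0.38) and Tmem30a (-0.36). Under the replicate block Id4, Npnt, Emp1, Slc15a2 and Tmem30a lost the call (adjusted p 0.058, 0.0576, 0.0648, 0.109 and 0.058). Leaving out single arrays, 2 to 6 of the 6 depending on the gene, ended it for each of the genes in this paragraph, with adjusted p up to 0.158 for Id4, 0.0832 for Fam3c, 0.102 for Emb and 0.203 for Npnt. With the 4 h arrays alone these 4 had an adjusted p of 0.228, 0.0747, 0.0895 and 0.0903, and without both arrays numbered 2 of 0.447, 0.0623, 0.282 and 0.487.

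Lists with no member past the threshold at 4 h were those of immediate early genes (0 of 26, median 0.03), cell cycle and DNA replication (0 of 37, median 0.03), Wnt signalling (0 of 34, median 0.0), IGF signalling (0 of 15, median 0.03), endoplasmic reticulum chaperones (0 of 19, median -0.03) and proteases and their inhibitors (0 of 40, median -0.07). At an unadjusted p under 0.05, 3, 2, 5, 0, 0 and 5 of their members passed by limma, beside 562 of 8251 genes. Changes ranged from -0.27 to 0.59 among the immediate early genes, from -0.33 to 0.31 in the cell cycle list, from -0.39 to 0.34 in the Wnt list, from -0.18 to 0.11 in the IGF list, from -0.24 to 0.19 among the chaperones and from -1.03 to 0.55 among the proteases. The lowest protease was Mmp12, a macrophage metalloelastase named after its value was seen, with means of 872.2 and 383.2 (-1.03 ± 0.31, adjusted p = 0.225). Among bright members of these lists Jund read 0.14 ± 0.13, Jun 0.06 ± 0.09, Ctnnb1 -0.12 ± 0.11, Igf1r 0.02 ± 0.14 and Hspa5 -0.08 ± 0.17. A single time point 4 h after injection does not show what these genes did earlier. The list of LIF and interleukin 6 signalling had 0 of 16 genes passing on the brightest probe set of each gene, Lifr passing only on a less bright one, and that of steroid receptors, chaperones and conjugating enzymes had Sult1d1 alone among 23.

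The summed signal of cell type markers did not separate the treatments in any of 11 lists. For 20 epithelial markers the sum was 15714 to 18251 on vehicle arrays and 13982 to 16452 on P4 arrays, for 18 stromal markers 35708 to 41706 and 36060 to 39258, and for 12 smooth muscle markers 44737 to 50607 and 45361 to 47065. Tspan8 fell and the other 19 epithelial markers did not pass, with a median change of -0.13 over the list. At an unadjusted p under 0.05 by limma 8 of the 20 passed, beside 562 of 8251 genes and 0 to 3 in each of the other marker lists. Krt8 (-0.43 ± 0.14), Krt18 (-0.28 ± 0.11) and Wfdc2 (-0.39 ± 0.2) were on the lower side and Cldn3 (0.39 ± 0.19) on the higher, and the part of these shifts in the falls of epithelial genes was not tested. In the 10 other lists, from stroma and smooth muscle to blood, fat, skeletal muscle and ovary, 0 markers passed. None of the markers was listed at 0 on any of the 6 arrays, and the eosinophil and mast cell markers Epx and Mcpt4 stayed under 50 on every one. Adipocyte markers such as Adipoq (means 3176 and 2870.0) were bright, with sums over the list of 20402 to 23437 and 16982 to 22204.

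P4 array 3 had the smallest response in most of the genes that rose. It was the lowest of the 3 P4 arrays in 59 of the 65 higher probe sets, while P4 arrays 1 and 2 were each the lowest in 3. How often it was the lowest over all probe sets was not counted, and the 65 were called on these same arrays. The median change from the vehicle mean over these probe sets was 0.68, 0.77 and 0.42 on P4 arrays 1, 2 and 3. In the 23 lower probe sets it was -0.81, -0.69 and -0.59, and over all probe sets -0.03, 0.01 and 0.02. Among the vehicle arrays, array 2 was the lowest in 33 of the 65 and array 3 the highest in 34. The 138 calls made without P4 array 3 included 81 of the 88.

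**Figure D3:**
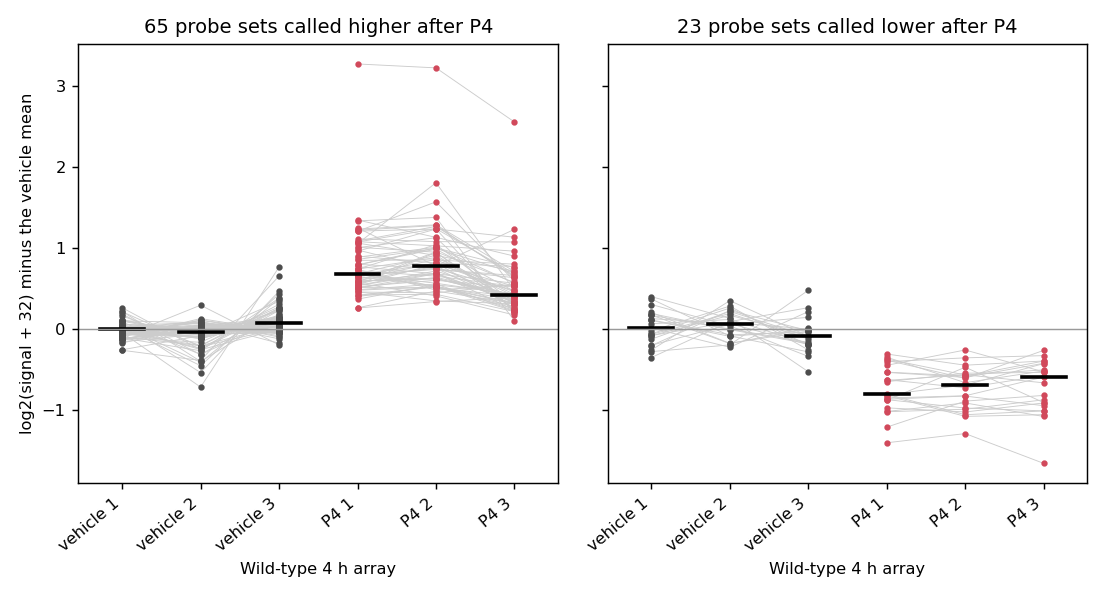
log2(signal + 32) of each wild-type 4 h array minus the mean of the 3 vehicle arrays, for the 65 probe sets called higher (left) and the 23 called lower (right); points are probe sets, thin lines join one probe set within a group and bars are medians. The median of P4 array 3 (0.42) lies below those of P4 arrays 1 and 2 (0.68 and 0.77) on the left.

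In PRKO mice at 4 h 0 of the 12422 probe sets passed (0.0%), and the lowest adjusted p was 1.0. By limma 236 had an unadjusted p under 0.05, against 774 in wild type and 621.1 expected from the number tested alone. The PRKO count lies well below that number, so these counts do not measure how far the responses differ. The 65 probe sets that rose in wild type had PRKO changes between -0.2 and 0.29 with a median of 0.0, and 31 of 65 above 0. For the 23 that fell the range was -0.3 to 0.41 and the median -0.09, with 18 of 23 below 0 (78.3% had the sign seen in wild type, beside 47.7% of the 65 and 49.7% of all probe sets). Without PRKO vehicle array 1, 2 probe sets passed in PRKO, both lower after P4. Cyp26a1 read 161.9, 116.9 and 109.0 on PRKO vehicle arrays and 111.2, 106.0 and 109.1 on PRKO P4 arrays. Cited2 read 806.6, 734.2 and 951.8 and then 657.0, 881.9 and 819.0, and Pdk3 347.9, 410.2 and 488.0 and then 292.9, 461.7 and 372.6. In these 3 genes the PRKO groups overlapped.

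The difference between the genotypes was tested itself, and 12 probe sets passed (0.0966%), each of them also called in wild type. That match is partly built in, because the test uses the same wild-type arrays as the calls, and it is no independent evidence. For Cyp26a1 the wild-type change exceeded the PRKO change by 3.2 ± 0.22 (adjusted p = 3.36e-08), for Ggct by 1.05 ± 0.13 (0.000344) and for Pip5k1b by 0.99 ± 0.15 (0.00554). The others above 0 were Cited2 (1.27 ± 0.21), Pdk3 (1.19 ± 0.21), Bmp2k (1.07 ± 0.2), Caprin2 (0.96 ± 0.18), Tiparp (0.89 ± 0.17), both probe sets of Adh5 (0.7 ± 0.12 and 0.63 ± 0.12) and Atp6v1b2 (0.55 ± 0.1), with adjusted p from 0.0151 to 0.0484. Sult1d1 was the 1 below 0, at -1.39 ± 0.18 (adjusted p = 0.00093). It fell in wild type, whereas PRKO arrays read 148.5, 128.4 and 183.9 under vehicle and 180.6, 227.2 and 235.5 under P4 (0.41 ± 0.13, unadjusted p = 0.00475 by limma, adjusted p = 1.0). The PRKO vehicle mean (153.6) was already below the wild-type means under vehicle (468.1) and under P4 (223.7). The part of this lower starting level in the difference was not tested. Cyp26a1, Ggct, Pip5k1b and Sult1d1 passed whichever of the 12 arrays of 4 h was left out, and the other 8 probe sets did not. The count was 42 without wild-type P4 array 3 and 4 to 18 without any other array of 4 h. With the spread from the 4 h arrays alone Cyp26a1 remained (9.5e-05), and with the replicate block 20 probe sets passed, 9 of them among the 12. The other 76 called probe sets did not pass this test, so a dependence on the receptor is not shown for each of them.

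**Figure D4:**
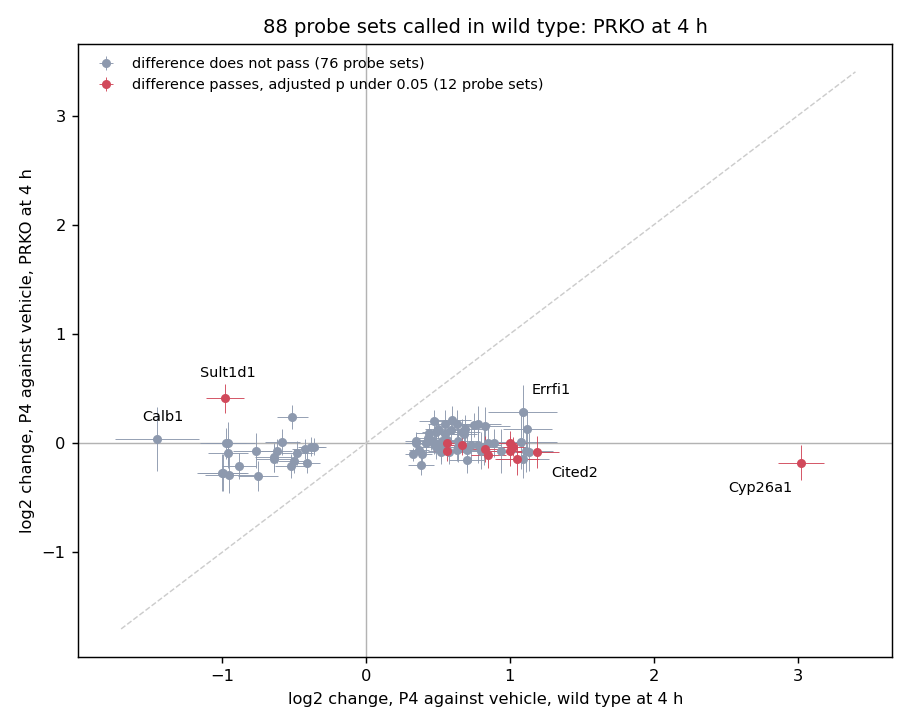
log2 change after P4 in PRKO uterus at 4 h (vertical axis) against that in wild type (horizontal axis) for the 88 probe sets called in wild type; bars are SE, the dashed line marks equal change and red points pass the test of the difference. PRKO values lie between -0.3 and 0.41 while wild-type values reach 3.02.

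At 40 h, after 4 injections, 89 probe sets were higher (0.716%) and 102 lower (0.821%) in wild type, on arrays separate from those of 4 h. Of the 65 that rose at 4 h, 8 also rose at 40 h, which is 12.3% of the 4 h set and 8.99% of the 40 h set, and 2 fell. Of the 23 that fell, 6 also fell (26.1% and 5.88%) and 2 rose. The median change at 40 h was 0.02 and -0.17. Acot7 was higher at both times, with 800.2, 549.4 and 475.6 under vehicle and 2132, 1792 and 2031 under P4 at 40 h (1.68, adjusted p = 8.05e-06). Npl (1.6), Ripor2 (0.78), Myd88 (0.73), Slc2a3 (0.72), Clcn5 (0.71), Hopx (0.56) and an unnamed probe set were the others. Car2 (-0.93), Tspan8 (-0.93), Gjb2 (-0.85), Efnb2 (-0.62), Prxl2a (-0.6) and an unnamed probe set fell at both times.

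A test of the difference between 4 h and 40 h passed for 59 probe sets (0.475%), 18 of the 65 and 5 of the 23 among them. The test uses the same wild-type arrays of 4 h on which those calls were made. The overlap is therefore partly built in and is no independent evidence, and differences of called probe sets tend to be overstated. Cyp26a1 read 120.1, 198.7 and 175.2 under vehicle and 136.5, 120.8 and 121.1 under P4 at 40 h, so the groups overlapped, and its change was 3.31 lower there than at 4 h. S100g turned round: its brighter probe set read 787.6, 872.4 and 573.3 under vehicle and 2633, 2260.0 and 2073 under P4 at 40 h (1.61, adjusted p = 8.05e-06), all P4 arrays being above the vehicle arrays. The 4 h change minus the 40 h change was -2.6 ± 0.23 for that probe set (adjusted p = 1.31e-06), -2.4 ± 0.19 for the other and -2.11 ± 0.42 for Calb1 (adjusted p = 0.0164). Aldh1a1 and Parm1 rose at 4 h and fell at 40 h (-0.77 and -0.61), with differences of 1.44 ± 0.17 and 1.1 ± 0.14. For 39 of the 65 and 12 of the 23 neither the 40 h effect nor the difference passed, so these are not shown to be confined to 4 h. The count was 91 without P4 array 3 of 4 h and 32 without P4 array 2 of 40 h, the 2 extremes among the 12 arrays left out in turn. With the replicate block 129 probe sets passed, 56 of them among the 59. The difference for Calb1 was lost without vehicle array 3 of 4 h, P4 array 1 of 40 h or vehicle array 3 of 40 h (adjusted p up to 0.0591), and 12 of the 22 named probe sets passed whichever array was left out.

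**Figure D5:**
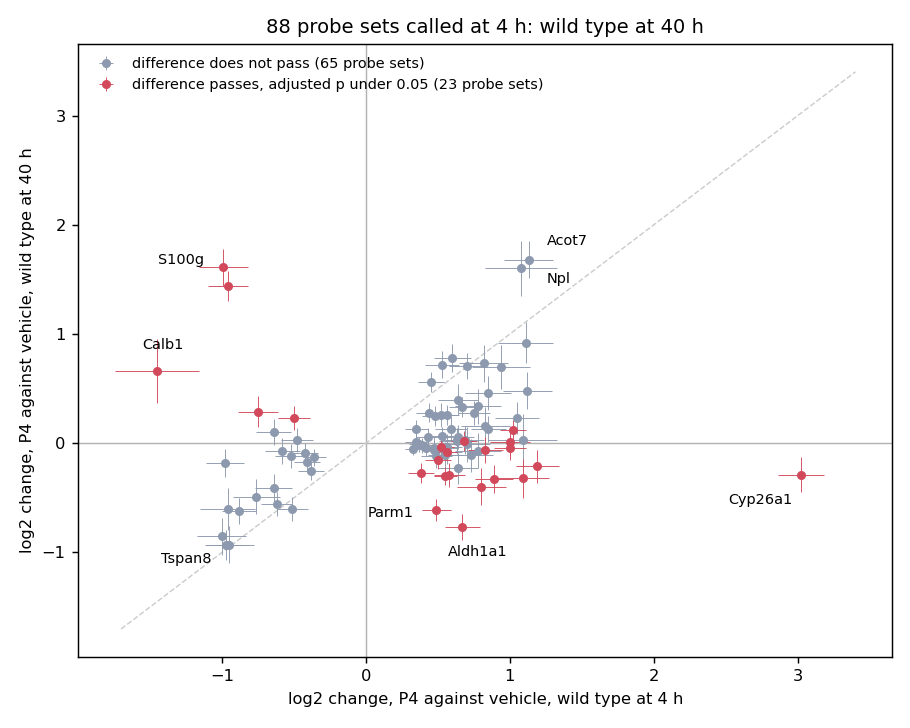
log2 change after P4 in wild-type uterus at 40 h (vertical axis) against that at 4 h (horizontal axis) for the 88 probe sets called at 4 h; bars are SE, the dashed line marks equal change and red points pass the test of the difference. S100g is lower at 4 h (-0.99) and higher at 40 h (1.61), and Cyp26a1 falls from 3.02 to -0.29.

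Of the 79 genes, 27 have more than 1 probe set on the array. All probe sets of Adh5, Errfi1, Klk1 and S100g passed. Each of the other genes had at least 1 probe set that did not pass. In 19 of the 27 every probe set had the same sign, and in 8 (Aldh1a1, Emb, Lifr, Pdlim1, Pdxdc1, Pnkd, Prxl2a and Tmem30a) a probe set that did not pass had the opposite sign. The same sign is not agreement, since it includes values at or near 0. Such were Ckmt1 and Fam3c (0.0), Atp1b1 (0.01), Rhou (0.04), Clcn5 and Slc2a3 (0.07) and Pip5k1b (0.09). Pfkfb3 and Ncaph read 0.17, Pdlim1 -0.02 and Pnkd -0.06 on the probe set that did not pass. The called probe sets were brighter than most, with a median signal of 549.3 over the 24 arrays against 332.0 for all probe sets.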

How the data were processed

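RNA of whole uterus was hybridised to 24 Affymetrix arrays, 3 in each of 8 groups. The deposited values are intensity values on a linear scale, made with MAS5 per the submitters' processing notes, with no version stated. The table holds 12488 probe sets, of which 66 controls were left out. Each array (medians 323.2 to 342.6) was scaled to a mean of 500 after trimming 2% at each end, by factors of 0.954 to 1.03, and log2(signal + 32) was fitted with limma 3.58.1 in R 4.3.3 (group means of all 24 arrays, 16 residual degrees of freedom, intensity trend, two-sided, Benjamini-Hochberg over 12422 probe sets). Array number limits the precision: the median SE of a change at 4 h was 0.102. It rests on a spread shared with the quieter groups of 40 h and so tends to be too small. The fit was tested on simulated data with independent noise and, for each probe set, the same spread in every group. That setting leaves out the wider spread at 4 h and any shared deviation of arrays. It therefore does not check the error rate of the 4 h calls.

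Genes were named by the platform annotation, with 10833 probe sets naming a single gene, 396 several and 1193 none. Values per array are given for the 15 highest and 15 lowest changes among called, single-gene, separate probe sets, others by their change. Gene lists use the brightest probe set per gene and got no test. Members, gene lists and tests were chosen with earlier results of these data known.

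Replicate numbers are shared by the labels of the groups compared. In wild type at 4 h the deviations of P4 and vehicle arrays of one number from their group means correlated by 0.114, 0.516 and 0.35. Arrays of unlike number correlated by -0.422 to 0.174, the highest being P4 array 3 with vehicle array 1. In PRKO at 4 h arrays of one number correlated by 0.627, 0.253 and -0.124, and P4 array 2 with vehicle array 3 by 0.549. No label states a shared litter or day, so whether the numbers pair the arrays is not settled. The main fit leaves the numbers out. The block was an alternative, beside other scaling, offsets, dim-probe filters, priors, array weights, the arrays fitted and arrays left out.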

Additional observations from a re-analysis of the deposited data

Results flagged for a closer look

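The effect of P4 at 4 h differed between wild type and PRKO by the test of the difference (limma, adjusted p under 0.05) for 12 probe sets, and the log2 differences, wild type minus PRKO, were as follows. The retinoic acid hydroxylase Cyp26a1 differed by 3.2. The co-regulator Cited2 differed by 1.27, the pyruvate dehydrogenase kinase Pdk3 by 1.19 and the glutathione enzyme Ggct by 1.05. Bmp2k differed by 1.07, Pip5k1b by 0.99, Caprin2 by 0.96 and Tiparp by 0.89. The 2 probe sets of Adh5 differed by 0.7 and 0.63 and the proton pump subunit Atp6v1b2 by 0.55. The sulfotransferase Sult1d1 differed by -1.39, with a lower vehicle mean in PRKO (153.6) than in wild type (468.1). The wild-type arrays that made the calls enter this test too, so differences of called probe sets tend to be overstated.

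The effect in wild type differed between 4 h and 40 h for 22 named probe sets among those called at 4 h, with log2 differences given as 4 h minus 40 h. The 4 h arrays that made the calls enter this test too, so these differences tend to be overstated. Of the genes that rose at 4 h, Cyp26a1 differed by 3.31, Aldh1a1 by 1.44, Cited2 by 1.41, Sgk1 by 1.4, the IgA carrier Pigr by 1.2 and Parm1 by 1.1. Pip5k1b differed by 1.03, Bmp2k by 0.99, Ggct by 0.9 and Tiparp by 0.89. Ckmt1 differed by 0.86, Kcnk1 by 0.85, Zdhhc3 by 0.66, Gpc4 by 0.66, Ank by 0.65, Atp6v1b2 by 0.64 and Pdxdc1 by 0.55. Of the genes that fell at 4 h, the probe sets of S100g differed by -2.6 and -2.4, Calb1 by -2.11, Pla2g4a by -1.04 and H2az1 by -0.74.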

How the results depend on the processing

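No called probe set that names a gene changed direction under the alternatives run. Values of genes that did not pass were not rerun, apart from Pgr, Fkbp5, Hand2, Nr2f2 and a second Gata2 probe set. List medians moved past their spread without vehicle array 2 for interleukins (0.06) and prostaglandins (0.09) and without P4 array 1 for ion transport (0.03). The wild-type effect at 4 h gave 88 calls, 29 with the 12 arrays of 4 h, 46 with those arrays and a replicate block (an alternative added after seeing the data), 10 with its 6 arrays, 29 without both arrays numbered 2 and 41 to 138 without 1 array. With the replicate block on all 24 arrays it gave 103, and with array weights 61, 56 of them among the 88. Both Errfi1 probe sets (adjusted p 0.0555 and 0.0696), Tspan8 (0.0673) and Ihh (0.124) were among the calls lost with array weights. The PRKO effect gave 0, and 0 to 2 without 1 array. The genotype difference gave 12, 22 with array weights, 19 with an offset of 100, 1 with the 12 arrays of 4 h, 1 with those and a block, 20 with the replicate block, 4 without both arrays numbered 2 and 4 to 42 without 1 array. The 40 h effect gave 191, 519 with array weights, 376 with the replicate block and 90 to 189 without 1 array. The time difference gave 59, 129 with the replicate block, 38 without both arrays numbered 2 and 32 to 91 without 1 array. The cause of these shifts was not tested. At 40 h wild-type arrays of one number correlated by 0.116, 0.142 and 0.0686, and a pairing is not settled there either. Apart from the calls named beside their genes, the block ended no call of a named gene in wild type at 4 h. Quantile normalization and no further scaling moved the median of all probe sets by 0.0 and 0.01. With 3 arrays a group, small changes and dim probe sets are poorly resolved.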
